A study of Rattus norvegicus with 8 samples.

Results

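Immediate early genes are switched on within minutes of a growth factor, stress or hormone signal, without new protein being made first. Their products include the AP-1 subunits Fos and Jun, the zinc finger factor Egr1 and the stress factor Atf3, which turn the brief signal into a longer change of transcription, and phosphatases such as Dusp1 that switch the MAP kinases off again. Growth arrest genes such as Gadd45a, Gadd45b and Cdkn1a hold the cell cycle after stress or DNA damage, while Myc drives growth. In liver both kinds respond to partial hepatectomy, toxic injury, fasting signals and glucocorticoids, and some respond to the handling of the animal or tissue.

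The genes described here are 10 of this kind, chosen by name with earlier results of these data known: Dusp1, Gadd45a, Gadd45b, Fos, Jun, Egr1, Atf3, Myc, Ier2 and Cdkn1a. Of the 14213 genes with a probe set annotated to exactly 1 gene, all 10 were measured, by 15 of the 31042 probe sets. Liver RNA came from 8 male Sprague-Dawley rats aged 7 weeks, with 1 Affymetrix 3' expression array per rat. For 2 weeks, 4 of these rats (L. brevis 1 to 4) were fed CRF-1 rodent chow that held, in each kg, 10 g of cholesterol, 5 g of cholic acid and 10 g of freeze-dried, viable Lactobacillus brevis 119-2, a strain from turnip. The other 4 rats (control 1 to 4) were fed that chow with cholesterol and cholic acid but no bacteria, according to the design text, whereas their source label names CRF-1 alone. Each diet was given to 11 rats, so the arrays cover a part of each group, and no genetic alteration is named for either.

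The deposited signals are on the log2 scale, and a difference is the L. brevis mean less the control mean. A value is called flat below if it was the same on all 8 arrays to within 0.01 log2, which was so for 24719 probe sets. A flat value was set by the authors' processing and does not show that a gene's level was equal in all rats. Varying probe sets numbered 6323 (20.4%). Array medians over all probe sets, most of them flat, lay between 6.61 and 6.63. Over varying probe sets the medians lay between 8.15 (L. brevis 4) and 8.24 (control 1). Hepatocyte markers were bright, with linear signals that summed over 7 genes to 91670 to 95660 in L. brevis livers and 91554 to 94106 in control livers. The array of L. brevis 2 stood apart for the muscle actin gene Acta1, with 12.45. L. brevis 1, 3 and 4 had 5.29 to 5.48 and the control rats 5.08 to 5.54. Its value was also the highest for the muscle gene Ckm (7.78), but its Myh1 of 11.31 lay near the 11.32 of control 1. The same array was the highest for the erythroid genes Hbb (14.31) and Alas2 (8.92) and for the stellate cell marker Dcn (9.53). The gap between 5' and 3' GAPDH probe sets, a measure of RNA quality and labelling, was -2.20, -1.30, -0.94 and -0.68 in L. brevis 1 to 4, against -2.89, -1.83, -2.93 and -1.98 in control 1 to 4. It was thus less negative in L. brevis 2, 3 and 4 than in every control, so this gap and the diet cannot be fully told apart. In whole liver, a change in the number of cells of a type and a change in RNA per cell cannot be told apart.

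Promoters were on hand for 6 of the 10 genes (RefSeq, build GRCr8). Those of Dusp1, Gadd45a and Egr1 are shown because the pairwise correlations of these genes over rats, given further on, include the one with the smallest p, though none passed adjustment. Each line gives the 250 bases before the annotated start, 5′ to 3′ on the strand of the gene. Capitals mark the cyclic AMP response element half-site TGACG on either strand (CGTCA on the opposite one) and the CArG box, the sequence that serum response factor binds.
Dusp1, chr10:17184603-17184852 (+): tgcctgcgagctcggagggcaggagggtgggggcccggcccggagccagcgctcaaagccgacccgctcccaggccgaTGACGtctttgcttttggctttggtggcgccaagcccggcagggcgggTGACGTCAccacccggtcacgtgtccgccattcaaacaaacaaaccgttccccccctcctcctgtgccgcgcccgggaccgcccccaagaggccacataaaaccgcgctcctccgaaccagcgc
Gadd45a, chr4:97486800-97487049 (-): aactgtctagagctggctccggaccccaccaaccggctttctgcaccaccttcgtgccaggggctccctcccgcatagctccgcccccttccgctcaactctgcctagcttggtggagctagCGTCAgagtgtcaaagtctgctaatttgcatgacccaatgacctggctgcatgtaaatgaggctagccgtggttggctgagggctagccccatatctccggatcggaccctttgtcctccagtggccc
Egr1, chr18:26736828-26737077 (+): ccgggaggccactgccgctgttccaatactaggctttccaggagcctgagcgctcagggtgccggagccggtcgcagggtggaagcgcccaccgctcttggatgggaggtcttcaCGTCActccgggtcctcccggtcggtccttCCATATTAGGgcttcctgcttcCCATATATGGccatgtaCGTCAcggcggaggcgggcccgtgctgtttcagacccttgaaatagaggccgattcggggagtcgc
The half-site was matched 3 times in the Dusp1 window, and 2 of these overlap in the full element TGACGTCA. It was matched 1 time in the Gadd45a window and 2 times in that of Egr1. Egr1 held 2 CArG boxes, which begin 105 and 83 bases before the start. Among 33469 annotated promoters of the same length, 18.2% held the half-site, 1.59% the full element and 1.5% a CArG box. Of the other promoters on hand, Ier2 held the full element, Cdkn1a 1 half-site and Gadd45b none. The AP-1 site TGANTCA, held by 6.34% of all promoters, was found in none of the 6 windows. These matches are descriptions of letters and were not tested for binding.

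None of the 10 genes passed the test for a diet difference. At the brightest probe set, 4 of the 7 varying genes were higher and 3 lower in L. brevis livers, with a median of 0.19 log2, beside -0.02 over all varying probe sets, of which 46.2% were higher. By limma 0 of the 9 varying probe sets of these genes passed an adjusted p of 0.05, where 0.111% of varying probe sets did in the fit to all probe sets and 0.0633% in a fit to varying probe sets alone. Over all probe sets 44 (0.142%) passed, 0.0548% on the higher and 0.087% on the lower side. Of these 44 only 7 were varying, and the rest were flat, with values set by the authors' processing. At an unadjusted p under 0.05 there was 1, the brightest of Dusp1, where 22.9% of varying probe sets passed (9.44% on the higher and 13.5% on the lower side, and 24.5% in the fit to varying probe sets alone). The diets overlapped at all 9, while 11.3% of varying probe sets had no overlap. Adjusted p values of the 9 ran from 0.357 to 1.00 (limma, two-sided, over all 31042 probe sets). The smallest p that an exact permutation of 4 against 4 rats can give is 0.0286.

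**Figure D1:**
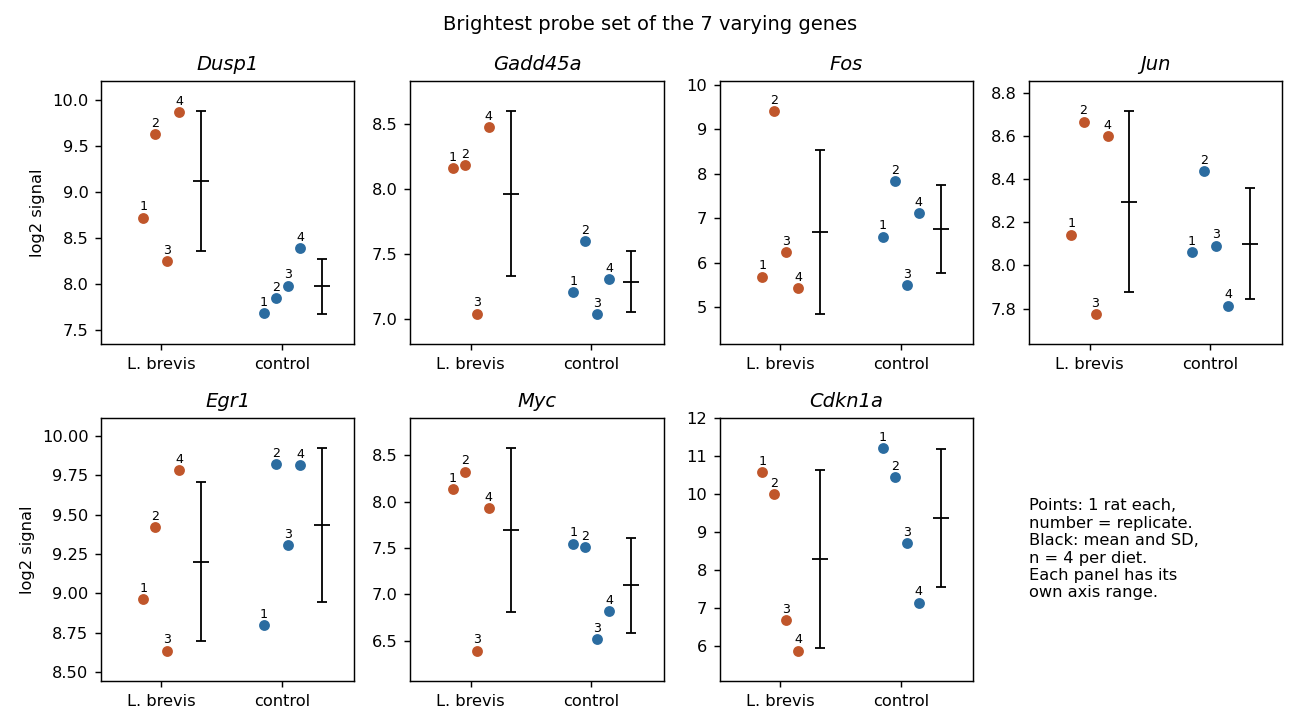
Log2 signal (vertical axis, own range per panel) of the brightest probe set of the 7 varying genes in L. brevis rats (left) and control rats (right). Each point is 1 rat with its replicate number, and the black mark gives the mean and SD of 4 rats. L. brevis 1, 2 and 4 lie above all controls for Dusp1, Gadd45a and Myc, and L. brevis 3 does not.

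Dusp1 encodes the nuclear phosphatase MKP-1, which inactivates p38, JNK and ERK. Its brightest probe set (1368146_at) had 8.72, 9.63, 8.25 and 9.87 in L. brevis 1 to 4, against 7.69, 7.85, 7.98 and 8.39 in control 1 to 4. Of the L. brevis rats 3 were above every control, and L. brevis 3 was below control 4. The means were 9.12 ± 0.76 in L. brevis and 7.98 ± 0.30 in control livers (SD, n = 4 each). The difference was +1.14 (SE 0.40, 95% interval 0.16 to 2.12), or 2.21-fold, with a limma adjusted p of 0.357, 0.151 over varying probe sets alone, and an exact permutation p of 0.0571. It was +0.89 without L. brevis 4 and +1.43 without L. brevis 3. Adjusting for the GAPDH 5' to 3' gap gave +0.78. The dimmer probe set (1368147_at) differed by +0.05 (SE 0.09), with 6.02 to 6.35 in L. brevis and 5.94 to 6.14 in control rats. The probe sets of Dusp1 therefore disagreed in size: only the brighter held a difference over 1 log2, a size reached by 3.07% of varying probe sets.

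Gadd45a encodes a stress sensor that binds PCNA and p21 and is induced by DNA damage. Its only probe set (1368947_at) had 8.16, 8.18, 7.04 and 8.47 in L. brevis 1 to 4, against 7.21, 7.59, 7.04 and 7.30 in control 1 to 4. L. brevis 1, 2 and 4 lay above all controls, and L. brevis 3 lay level with the lowest control. The difference was +0.68 (SE 0.33, 95% interval -0.13 to 1.49; limma adjusted p = 0.525, exact permutation p = 0.114). It was +0.98 without L. brevis 3, +0.51 without L. brevis 4 and +0.24 with array weights. Gadd45b, a relative that activates the p38 and JNK pathways, was flat at 7.27, so no difference could be measured for it.

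Myc encodes the growth-promoting transcription factor of that name. Its probe set (1368308_at) had 8.14, 8.32, 6.39 and 7.93 in L. brevis 1 to 4, against 7.55, 7.51, 6.52 and 6.82 in control 1 to 4. The same 3 L. brevis rats as for Dusp1 and Gadd45a were above all controls, and L. brevis 3 was below all of them. The difference was +0.60 (SE 0.50, 95% interval -0.63 to 1.82; limma adjusted p = 0.750, exact permutation p = 0.286). It was +1.03 without L. brevis 3. With array weights, in which L. brevis 3 counted most (3.36) and L. brevis 1 least (0.32), it was -0.0050.

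The AP-1 subunit genes had no common direction. Fos, whose product pairs with Jun, had 5.69, 9.40, 6.23 and 5.43 in L. brevis 1 to 4 at its brightest probe set (1375043_at), against 6.58, 7.84, 5.50 and 7.12 in control 1 to 4. L. brevis 2 was above all other rats and L. brevis 4 below all of them. This L. brevis 2 array is the one with high Acta1 and Ckm, and also with the highest Hbb, Alas2 and Dcn. Of 7 measured muscle markers 4 varied, with summed linear signals of 2182 to 8660 in L. brevis and 1758 to 2966 in control rats. The part of these muscle, erythroid and stellate cell genes in the Fos value was not tested. The Fos difference was -0.07 (SE 1.03, 95% interval -2.58 to 2.43; limma adjusted p = 1.00, exact permutation p = 0.943), and -0.98 without L. brevis 2. The interval leaves room for a difference of several-fold either way. The other Fos probe set (1371283_at) was flat at 5.92.

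Jun had 8.14, 8.66, 7.78 and 8.60 in L. brevis 1 to 4 at its brightest probe set (1389528_s_at), against 8.06, 8.44, 8.09 and 7.81 in control 1 to 4. L. brevis 2 and 4 were above all controls, and L. brevis 3 was below all of them. The difference was +0.19 (SE 0.24, 95% interval -0.39 to 0.78; limma adjusted p = 0.860, exact permutation p = 0.457). Without L. brevis 3 it was +0.37, and with array weights -0.048. The other Jun probe sets, 1369788_s_at and 1374404_at, were flat at 7.86 and 7.19. One of these is annotated to the same transcript record as the varying probe set, so that record gave both a flat and a varying value. Atf3, a repressor of the same bZIP class induced by cell stress, was flat at 6.57, and Ier2, a short-lived nuclear protein gene of the immediate early response, was flat at 8.17.

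Egr1 encodes a zinc finger factor induced through the serum response factor. It had 8.96, 9.42, 8.64 and 9.78 in L. brevis 1 to 4 (1368321_at), against 8.80, 9.82, 9.31 and 9.81 in control 1 to 4. The highest L. brevis value lay under control 2 and control 4, and L. brevis 3 was the lowest of all 8. The difference was -0.23 (SE 0.35, 95% interval -1.08 to 0.61; limma adjusted p = 0.885, exact permutation p = 0.514). Adjusting for the GAPDH 5' to 3' gap gave -0.78, and leaving out L. brevis 3 gave -0.046.

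**Figure D2:**
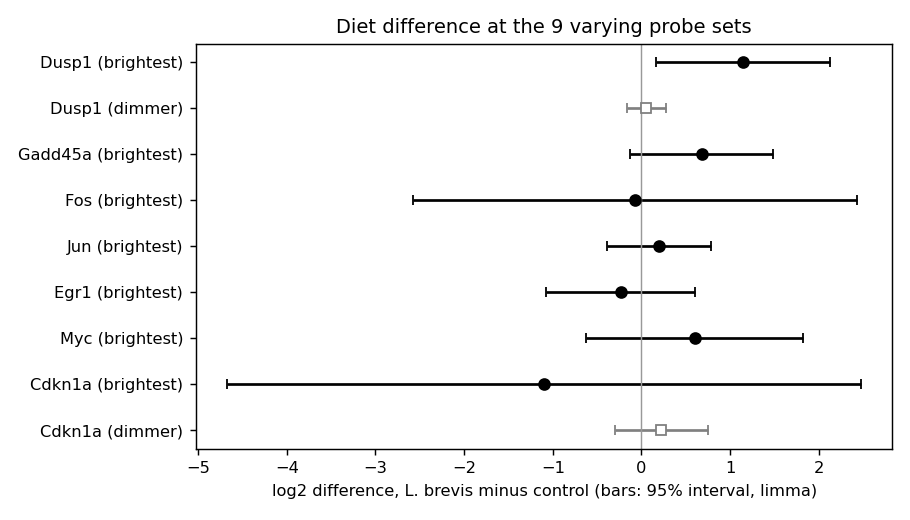
Log2 difference, L. brevis minus control (horizontal axis), at the 9 varying probe sets, with 95% intervals from limma over 8 rats. Filled circles are the brightest probe set of a gene and open squares a dimmer one. The interval of the brightest Dusp1 probe set (0.16 to 2.12) lies above 0, before adjustment, and those of the other 8 include 0.

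Cdkn1a encodes p21, the inhibitor of cyclin-dependent kinases induced by p53, and its probe sets disagreed most. The brightest (1388674_at) had 10.57, 10.00, 6.68 and 5.87 in L. brevis 1 to 4, against 11.21, 10.44, 8.72 and 7.13 in control 1 to 4. L. brevis 3 and 4 were below all controls, whereas L. brevis 1 and 2 lay inside the control range, so each diet held rats with high and with low signal. The values spanned 5.34 log2 over the 8 rats. The pooled SD within a diet was 2.10, larger than that of 99.7% of varying probe sets, whose median was 0.22. The difference of -1.10 (SE 1.47, 95% interval -4.67 to 2.47; limma adjusted p = 0.885, exact permutation p = 0.514) was thus inside the spread between rats. Adjusting for the GAPDH 5' to 3' gap gave +1.31, and leaving out L. brevis 4 gave -0.29. Each L. brevis rat lay below the control rat of the same number, and with a replicate block the limma adjusted p was 0.424. The dimmer probe set (1387391_at) had 7.11, 7.31, 6.66 and 6.47 in L. brevis 1 to 4, against 6.69, 6.90, 6.64 and 6.43 in control 1 to 4. It spanned 0.89 log2 and differed by +0.22 (SE 0.21; limma adjusted p = 0.750), in the opposite direction. At both probe sets L. brevis 1 and 2 were above L. brevis 3 and 4, and control 1 and 2 were above control 3 and 4.

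The same split, with rats 1 and 2 of each diet above rats 3 and 4, was looked for in the other lists after these values were seen. It was found in 5 of the 15 varying genes among other immediate early genes (Ccn2, Cebpb, Cebpd, Mcl1 and Rhob). A like share had it among glucocorticoid-responsive genes, 3 of 9 (Fkbp5, Per1 and Tsc22d3), and among other growth arrest and p53 target genes, 2 of 7 (Ccng1 and Phlda3). Of the MAP kinase cascade genes 0 of 6 had it. Over all lists it was found in 13 of 77 varying genes, while 8.4% of all varying probe sets had it. Tsc22d3 had 11.17, 11.17, 8.27 and 8.78 in L. brevis 1 to 4, against 11.03, 9.84, 8.32 and 8.30 in control 1 to 4. Ccn2, the matrix-associated growth factor gene, had 8.40, 8.87, 6.15 and 6.90 in L. brevis 1 to 4, against 8.64, 9.23, 6.98 and 6.98 in control 1 to 4. Cebpb, a bZIP factor of the acute phase and of liver regeneration, had 11.36, 11.26, 8.90 and 9.70 in L. brevis rats, against 10.85, 10.56, 9.90 and 8.87 in control rats. The Ccn2 diet difference of -0.38 (SE 0.85) ran from -0.81 to +0.10 with single rats left out. That of Cebpb, +0.26 (SE 0.74), ran from -0.13 to +0.73, so neither kept a direction. Replicate numbers are names of single rats, and no source ties equal numbers to a shared batch.

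**Figure D3:**
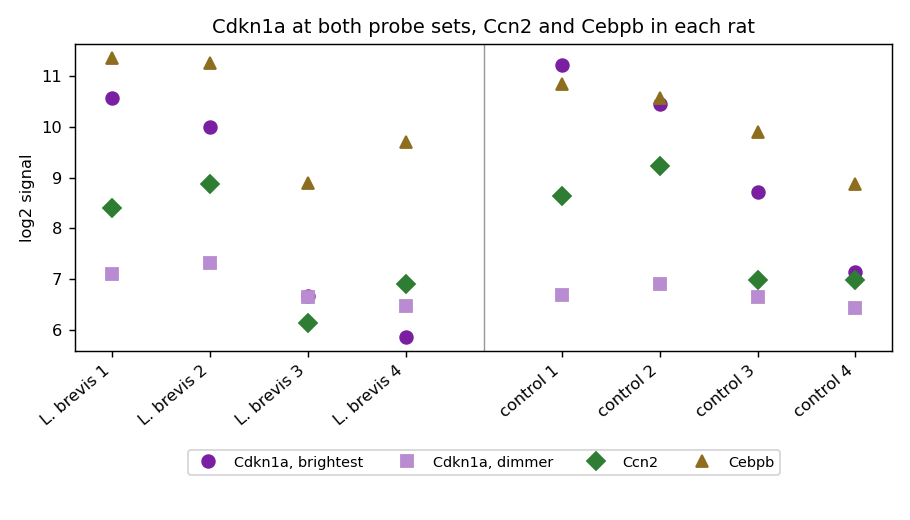
Log2 signal (vertical axis) of the 2 Cdkn1a probe sets, Ccn2 and Cebpb in each L. brevis rat (left) and control rat (right), 1 point per array. The brightest Cdkn1a probe set lies between 5.87 and 11.21 and the dimmer one between 6.43 and 7.31.

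The spread between rats was wide for most of these genes. The pooled SD within a diet was 1.48 for Fos, 0.72 for Myc, 0.58 for Dusp1, 0.50 for Egr1, 0.48 for Gadd45a and 0.35 for Jun, beside the median of 0.22 over varying probe sets. The SD was 0.76 in L. brevis and 0.30 in control livers for Dusp1, and 0.63 in L. brevis and 0.23 in control livers for Gadd45a. In each case the L. brevis spread includes the low value of L. brevis 3. The difference in spread itself was not tested.

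Which rats were high was compared across the 7 varying genes by correlating values centred within each diet over the 8 rats, 21 pairs in all. None passed after adjustment (smallest adjusted p = 0.267, exact permutation within diets). The pair with the smallest p was Dusp1 and Egr1, with r = 0.83 (exact p = 0.0174, adjusted 0.267) and rho = 0.76 (exact p = 0.0451, adjusted 0.474). Without the 2 rats farthest from the Dusp1 median r was 0.66, and without centring it was 0.33. Gadd45a and Egr1 had r = 0.73 (exact p = 0.0365, adjusted 0.267) and rho = 0.79 (exact p = 0.0417, adjusted 0.474), with r = 0.50 without the 2 rats farthest in Gadd45a and 0.37 without centring. The highest r of the 21 was that of Gadd45a and Myc, at 0.86 (exact p = 0.0694, adjusted 0.292), with rho = 0.50 (exact p = 0.264, adjusted 0.510), r = 0.74 without 2 rats and 0.87 without centring. Jun and Myc had r = 0.75 (exact p = 0.0625, adjusted 0.292) and rho = 0.57 (exact p = 0.208, adjusted 0.510), with r = 0.35 without 2 rats. For Gadd45a and Jun r was 0.80 (exact p = 0.0382, adjusted 0.267) and rho 0.69 (exact p = 0.101, adjusted 0.510), with r = 0.50 without 2 rats. Dusp1 and Gadd45a had r = 0.73 (exact p = 0.0868, adjusted 0.304) and rho = 0.62 (exact p = 0.181, adjusted 0.510). That relation rests on 2 rats, since r was 0.04 without them. Cdkn1a had its highest correlation with Myc, at r = 0.65 (exact p = 0.108, adjusted 0.323) and rho = 0.69 (exact p = 0.122, adjusted 0.510), and r = 0.80 without 2 rats.

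**Figure D4:**
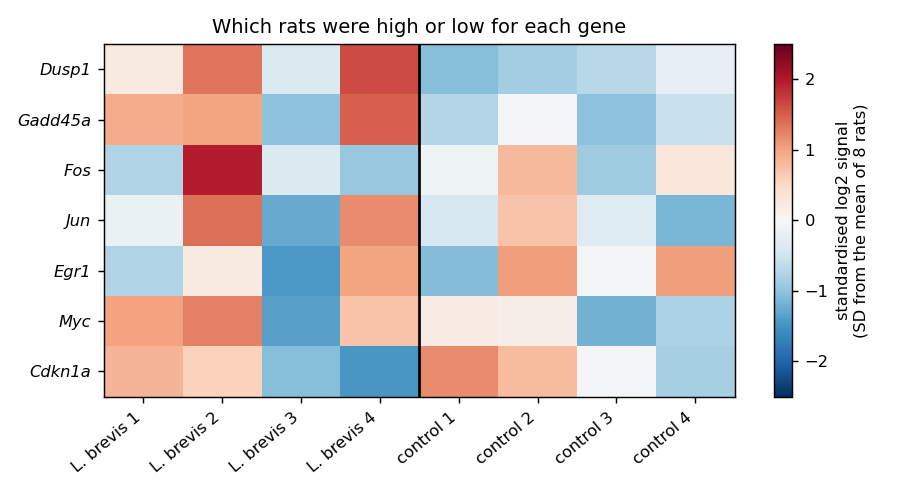
Standardised log2 signal (colour, in SD from the mean of 8 rats) of the 7 varying genes (rows) in L. brevis rats (left of the line) and control rats (right). L. brevis 3 is below the mean in all 7 rows, and L. brevis 2 is above it in all 7.

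The mean of the standardised values of the 7 genes was 0.19, 1.10, -0.98 and 0.51 in L. brevis 1 to 4, against -0.29, 0.37, -0.60 and -0.31 in control 1 to 4. L. brevis 2 had the highest and L. brevis 3 the lowest mean. Among 3722 other varying genes, those most like this profile over the 8 rats by Pearson correlation were Nr0b2 (0.96), the nuclear receptor SHP induced by bile acids, Ap4s1 (0.89), Actn2 (0.88), Cryab (0.88) and Rcan2 (0.87). These were picked for the highest correlation, on values not centred within diet, and carry no test. Nr0b2 had 9.11, 9.86, 8.38 and 9.17 in L. brevis 1 to 4, against 8.56, 9.25, 8.17 and 8.73 in control 1 to 4. Actn2, a sarcomere gene, differed little between rats, with 6.18 to 6.20 over all 8.

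Other immediate early genes showed no call for the diets. Of 36 measured genes 15 varied, 9 higher and 6 lower, with a median of 0.02 and 0 at an unadjusted p under 0.05 by limma. Klf10, a TGF-beta induced factor, differed by +0.29 (SE 0.15) and Dusp6, the cytosolic ERK phosphatase, by -0.36 (SE 0.20), or -0.03 at its dimmer probe set. The flat ones included Fosb, Fosl2, Jund, Egr2, Nr4a1, Ccn1, Klf6, Zfp36 and Ppp1r15a. Over the whole table the brightest probe set varied for 26.8% of genes.

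Among other growth arrest and p53 target genes 7 of 21 varied, 3 higher and 4 lower, with a median of -0.09 and 0 at an unadjusted p under 0.05. Gadd45g, the relative of Gadd45a and Gadd45b, had 7.17, 7.30, 6.48 and 11.22 in L. brevis 1 to 4, against 7.16, 8.20, 7.32 and 6.76 in control 1 to 4. L. brevis 4 alone was far above the rest, so the difference of +0.69 (SE 1.10) was -0.37 without that rat. Sesn2, a stress-induced inhibitor of mTORC1 signalling, differed by -0.48 (SE 0.35), and Aen, a p53-induced nuclease gene, by -0.36 (SE 0.22). Gas2 differed by +0.09 (SE 0.20). Mdm2, Plk3, Gdf15 and Cdkn1b were flat.

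Of the MAP kinase cascade and its nuclear targets 6 of 13 measured genes varied, 2 higher and 4 lower, with a median of -0.07 and 0 at an unadjusted p under 0.05. Mapk14, the p38 kinase that Dusp1 inactivates, differed by -0.45 (SE 0.27) and Elk4, a partner of serum response factor, by -0.41 (SE 0.18). Mapk9, a JNK, differed by +0.25 (SE 0.27), and Creb1, which binds the cyclic AMP response element, by +0.09 (SE 0.26), or -0.14 without L. brevis 1. Srf, Elk1 and Mapk8 were flat.

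All 9 measured glucocorticoid-responsive genes varied, 7 higher and 2 lower, with a median of 0.25 and 0 at an unadjusted p under 0.05 at the brightest probe set. Dusp1 is itself a glucocorticoid target. Fkbp5, the receptor's cochaperone, had 8.01, 7.99, 7.09 and 7.00 in L. brevis 1 to 4, against 9.05, 9.80, 9.02 and 7.44 in control 1 to 4. It differed by -1.30 (SE 0.56, limma adjusted p = 0.455), with control 4 inside the L. brevis range. The difference was -0.52 at its dimmer probe set, whose unadjusted p by limma was 0.00787. In the same fit a smaller unadjusted p, 0.00777 for Adgre1, had an adjusted p of 0.345. An unadjusted p under 0.05 was reached by 22.9% of varying probe sets. Tat, tyrosine aminotransferase, differed by +0.60 (SE 0.44), Errfi1, a feedback inhibitor of the EGF receptor, by +0.55 (SE 0.64), and Sgk1 by -0.25 (SE 0.37). Errfi1 was 10.66 in L. brevis 3, against 12.78 to 13.00 in the other L. brevis rats. The lowest of the L. brevis rats for Dusp1, Gadd45a and Myc was thus their lowest here too. Control 3 and 4 had 11.38 and 11.03.

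Proliferation genes were mostly flat, with 4 of 14 varying, 1 higher and 3 lower. Pcna, the sliding clamp of DNA replication, had 8.724, 8.882, 8.994 and 8.996 in L. brevis 1 to 4, against 8.700, 8.793, 8.453 and 8.704 in control 1 to 4. Its difference of +0.24 (SE 0.10, limma adjusted p = 0.416) was the only one at an unadjusted p under 0.05. Ccnd1, cyclin D1, differed by -0.76 (SE 0.61) and Mki67 by -0.14 (SE 0.11).

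**Figure D5:**
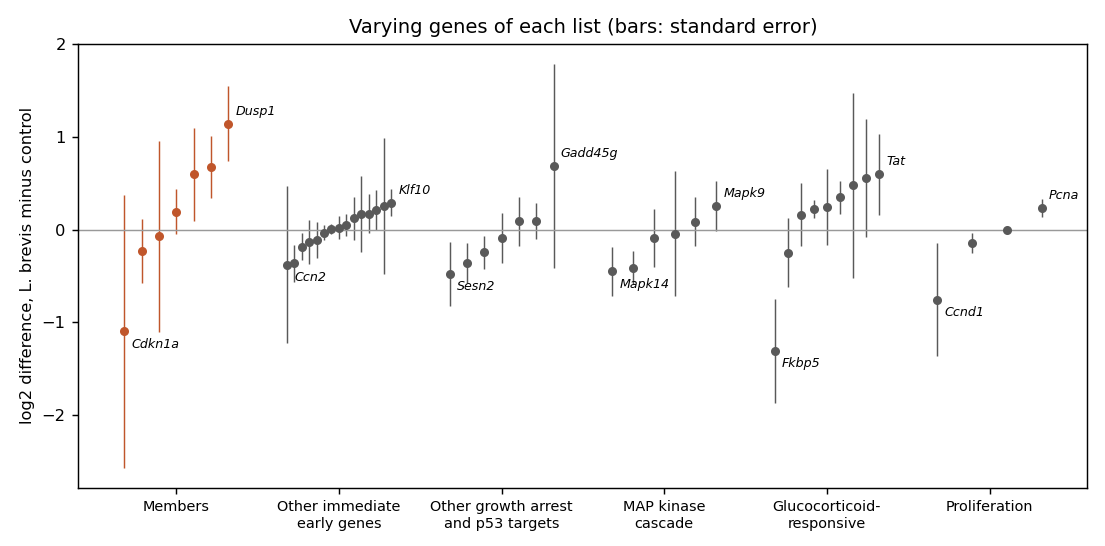
Log2 difference, L. brevis minus control (vertical axis), of each varying gene of the members and of 5 related gene lists, sorted within a list, with bars for the standard error. The members run from -1.10 (Cdkn1a) to +1.14 (Dusp1), and Fkbp5 at -1.30 is the lowest point of the plot.

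Markers of other liver and blood cells, which also carry immediate early genes, are given as values, and their part in the results was not tested. As a yardstick, 13.5% of all varying probe sets were lower with an unadjusted p under 0.05 by limma, and 9.44% were higher. Taken singly, 11.3% of varying probe sets kept L. brevis and control values fully apart. No such share was taken for sums over genes, which include flat genes and in which bright genes weigh most. Endothelial markers varied for 6 of 9 genes, all lower and 3 at an unadjusted p under 0.05 (Kdr -0.46, or +0.02 at its dimmer probe set, Pecam1 -0.26 and Stab1 -0.83), with Vwf at -0.63. Their summed linear signals were 3657 to 3924 in L. brevis and 4054 to 5900 in control livers, without overlap. Kdr, the brightest varying one, weighed most and had no overlap by itself (10.00 to 10.20 in L. brevis and 10.35 to 10.77 in control livers). Lyve1, the next brightest, overlapped (9.85 to 10.10 in L. brevis and 9.90 to 10.80 in control livers). No sum was taken without Kdr. Macrophage and Kupffer cell markers varied for 7 of 9, 6 higher and 1 lower, with Adgre1 at +0.65 and C1qb at +0.73 under an unadjusted p of 0.05, Cd163 at -0.16, and sums of 5391 to 6653 in L. brevis and 5045 to 6501 in control livers. For stellate cell markers 6 of 8 varied, 2 higher and 4 lower, with Pdgfrb at -0.42 under an unadjusted p of 0.05, Dcn at +0.62 (+0.07 without L. brevis 2), Lrat at +0.03 and Reln at -0.23 (+0.62 at its dimmer probe set), and sums of 3529 to 5448 in L. brevis and 3749 to 5397 in control livers. Neutrophil markers varied for 2 of 3, both lower (S100a8 -0.43 and S100a9 -0.90, but +0.08 and -0.20 without control 2). Their sums were 203 to 573 in L. brevis and 227 to 1302 in control livers. Erythroid markers varied for 3 of 4, each with a higher mean in L. brevis livers when all 8 arrays were used. Hbb was at +0.38 and Slc4a1 at +0.04, but without L. brevis 2 Hbb was at -0.18 and Alas2 at -0.44. Erythroid sums were 2765 to 21023 in L. brevis and 3588 to 8323 in control livers. Lymphocyte markers varied for 1 of 7 (Ptprc +0.05) and cholangiocyte markers for 2 of 4 (Cldn7 -0.04, Epcam +0.05). Hepatocyte markers varied for 5 of 7, 3 higher and 2 lower, with Ass1 at +0.11, Ttr at +0.09, Apoa1 at -0.13 and Fgb at -0.02. Of the muscle markers Acta1 was at +1.78 and Ckm at +0.39, and both were at +0.01 without L. brevis 2. Directions turned under quantile normalization for Btg1, Clec4f, Myh1 and Acta2, and under median centring for Csrnp1, Top2a, Fgb and Acta2. Adjusting for the GAPDH 5' to 3' gap turned more of them, 28 of the 77 varying genes of the lists and 18 of the 43 named ones. It gave -0.14 for Tat, -0.90 for Dcn, -0.72 for Hbb, -0.53 for Gadd45g, -0.20 for Mapk9, +0.17 for Sesn2, +0.07 for Aen, +0.06 for Mapk14 and +0.01 for Elk4. Since the gap itself differed between the diets, this adjustment cannot tell RNA quality from diet. With single rats left out, 32 of the 77 turned in at least 1 case. At the brightest probe set no gene of these lists passed an adjusted p of 0.05 by limma on all 8 arrays or with any 1 rat left out.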

How the data were processed

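Liver RNA of 8 rats, 4 per diet, was measured on Affymetrix 3' expression arrays, 1 per rat, from biotin-labelled RNA made with a 3' in vitro transcription kit per the labels' protocols. The deposited table holds 1 log2 value per probe set and array, normalized by the authors; the log2 scale was read from the values, and the summarisation, normalization and scan batches are not given in the sources used here. The number of arrays limits the precision, and background flags were not used.

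Of 31099 probe sets 57 Affymetrix controls were left out. Symbols came from the platform annotation, where 20826 probe sets had 1 symbol, 436 several and 9780 none, and were updated through gene identifiers (RefSeq, GRCr8). A gene is led by its brightest probe set, the one with the highest mean. The limma package (version 3.58.1, under R 4.3.3) fitted all 31042 probe sets, using lmFit and the intensity trend of eBayes. Tests are two-sided and p-values were adjusted by Benjamini and Hochberg's method. The fit was also run on simulated data, with normal noise drawn independently for each probe set and rat. That run therefore does not cover single outlying rats or patterns that rats share. Single differences also had an exact permutation test over 70 assignments, and correlations one over 576 permutations within diets (Python 3.11.15). The labels call the rats of a group biological replicates.

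Named are all 10 members, genes of the other lists at an unadjusted p under 0.05 or with the 2 largest differences in a direction, and the 5 genes most like the members' mean profile. Members, lists and tests were chosen with earlier results of these data known. Alternatives were probe sets fitted, normalization, trend, array weights, a GAPDH covariate, a replicate block, single rats left out and the mean over probe sets. Deviations of same-numbered rats correlated at 0.36, 0.20, 0.078 and 0.38, all positive. Those of differently numbered rats correlated at -0.52 to 0.40, most of them negative. Whether equal numbers share a structure was not tested. No source ties equal numbers to a shared batch, so the main fit took no pairs. The replicate block was fitted as an alternative.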

Additional observations from a re-analysis of the deposited data

Results flagged for a closer look

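In groups of 4 rats, a value is listed here when its gap to the nearest other rat, as a share of the group's range, was above Dixon's critical value at 95%. Of 104 such groups 7 were listed, and chance lists about 1 in 20. Among the 10 genes this was the dimmer Dusp1 probe set, at 6.35 in L. brevis 4 against 6.02 to 6.06 in the other L. brevis rats. Errfi1 was 10.66 in L. brevis 3, S100a9 8.33 in L. brevis 3, and Reln 9.93 in L. brevis 4. Acta1, the muscle actin gene, was 12.45 in L. brevis 2. Among control rats Sesn2 was 9.25 in control 1 and Cldn7 5.93 in control 4.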

How the results depend on the processing

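The brightest probe sets of Dusp1, Gadd45a and Egr1 kept their direction, without an adjusted call, under all 17 alternatives, with Dusp1 between 0.60 and 1.43 (adjusted p from 0.0721 to 0.998), Gadd45a between 0.24 and 0.98 (0.0759 to 1.00) and Egr1 between -0.78 and -0.046 (0.528 to 1.00). No alternative gave any of the 7 varying genes an adjusted call, and the 3 flat genes were not refitted under the alternatives. The lowest Dusp1 value was the mean over its 2 probe sets. Directions turned with array weights for Myc (-0.0050) and Jun (-0.048), with the GAPDH covariate for the brightest Cdkn1a (1.31) and the dimmer Dusp1 probe set (-0.012), and without L. brevis 3 and 4, an alternative added after seeing the data, for Fos (0.79), the brightest Cdkn1a (0.91) and the dimmer Dusp1 probe set (-0.034). The cause was not tested. With single rats left out Fos ran from -0.98 to 0.35, positive in 5 of 8 cases, the brightest Cdkn1a from -1.86 to -0.29, Dusp1 from 0.89 to 1.43 and its dimmer probe set from -0.024 to 0.084, Gadd45a from 0.51 to 0.98, Myc from 0.39 to 1.03, Jun from 0.071 to 0.37 and Egr1 from -0.45 to -0.046. The median over the 7 varying genes ran from 0.071 to 0.37 with single rats left out, was 0.88 without L. brevis 3 and 4 and -0.048 with array weights.

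Over all varying probe sets 7 were called, and the count was 4 in the fit to varying probe sets, 0 under quantile normalization, 4 under median centring, 19 with array weights, 1 with the GAPDH covariate and 4 without L. brevis 3 and 4. With a replicate block it was 22, which changed no call of the 7 varying genes. It ran from 3 to 49 with single rats left out, with 49 without L. brevis 1, 18 without control 4 and 3 without L. brevis 4. The correlation of Gadd45a with Cdkn1a was 0.23 on values centred within diet and -0.013 without centring. Flat probe sets limit the view of Gadd45b, Atf3 and Ier2.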

Other observations

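Genes whose values over the 8 rats were most like the brightest Cdkn1a probe set were looked up after its values were seen, among 3722 varying genes outside the lists. They were Aldoa, the glycolytic enzyme aldolase A (r = 0.98), Rbms1 (0.97), the chaperonin subunit gene Cct5 (0.96), Steap4 (0.96) and Arhgap6 (0.96). Aldoa had 9.77, 9.44, 8.87 and 8.70 in L. brevis 1 to 4, against 9.89, 9.78, 9.31 and 9.09 in control 1 to 4, so the rats kept nearly the order they had for Cdkn1a over a much smaller range. The genes most like the brightest Dusp1 probe set were Foxn2 (0.94), Erlin1 (0.92), Omd (0.91), Pik3r1 (0.91), a regulatory subunit of PI3 kinase, and Tob1 (0.90), an antiproliferative gene. Tob1 had 10.78, 11.05, 10.72 and 10.89 in L. brevis rats, against 10.39, 10.28, 10.48 and 10.59 in control rats. The genes like Cdkn1a and like Dusp1 were picked for their correlation, on values not centred within diet, and carry no test. Foxn2, Erlin1 and Tob1 each had all L. brevis rats above all controls, where 11.3% of varying probe sets had no overlap. A diet difference thus enters their r with Dusp1, besides likeness between rats of a diet.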
